A study of Homo sapiens with 2 samples.

Results

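Replication-dependent histone genes were examined for HNRNPK occupancy in H1299 cells. The 59 genes were selected by name, as histone genes of the chromosome 6 and chromosome 1 clusters, out of 20037 protein-coding genes of the RefSeq annotation. A gene was counted as having a peak when a row of the peak list overlapped its span or the 5 kb to either side by at least 1 bp. All 59 genes were found, 54 on chromosome 6 and 5 on chromosome 1. The peak positions that define this count come from the same list as the fold enrichment, pileup and FDR given here, and the genes were listed with results of that list known. All values are therefore a description, with no test.

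The study examined HNRNPK as a regulator of the CLCN3 promoter in lung adenocarcinoma cells. Chromatin immunoprecipitation with sequencing (ChIP-seq) gave 1 HNRNPK IP library and 1 input library from H1299, an established human non-small cell lung cancer line, with no treatment named in the labels. With 1 library of each kind there was no replicate error for any value. The authors' list held 22351 peaks with fold enrichment from 2 to 11.37 (median 3.58), and 15.5% of them had an FDR under 0.05.

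Replication-dependent histone genes supply the linker histone H1 and the core histones H2A, H2B, H3 and H4 that package newly copied DNA. They are short, lack introns and are transcribed mainly in S phase, when the cyclin E and CDK2 target NPAT gathers at the clusters. Their mRNAs generally end in a stem-loop rather than a poly(A) tail. The stem-loop is bound by SLBP, and the U7 small nuclear RNP directs the cut that forms the end. HNRNPK is a KH-domain protein that binds C-rich single-stranded RNA and DNA, and it acts in transcription and in RNA processing.

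Of the 59 histone genes, 33 (55.9%, exact 95% confidence interval 42.4 to 68.8) had a peak within 5 kb. The interval covers counting error only and treats neighbouring genes as separate, although they shared peaks. Among all protein-coding genes the share was 38.2%. Those genes had a median span of 24115 bp, however, against 494 bp for the histone genes, and a long span can hold more peaks. Among the 1255 protein-coding genes with a span under 2 kb the share was 18.5%, and without the histone genes of that size it was 17%. A peak with an FDR under 0.05 lay within 5 kb of 18 histone genes (30.5%), beside 9.05% of all protein-coding genes and 4.86% of the short ones. On the gene span itself, a peak was found for 8 histone genes (13.6%), against 29.7% of all protein-coding genes and 4.86% of the short ones.

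These genes were served by 28 distinct peaks, 21 on chromosome 6 and 7 on chromosome 1, because 23 of the 28 lay within 5 kb of more than 1 listed gene. Fold enrichment is the ratio of the IP pileup to a local background, each with 1 added, and the pileup is the IP coverage in scaled fragments. In the histone peaks fold enrichment ran from 2.44 to 10.47 with a median of 3.72, close to the 3.58 of the whole list. The pileup had a median of 11.2, from 5.84 to 24.3, against 7.79 in the list, and was above the list median in 23 of the 28. Whole fragments recovered from the pileup ran from 6 to 25. Here and below they give a height of coverage, not the number of fragments in a peak. The local background was also above the list median in 26 of the 28 peaks, at a median of 2.07 against 1.28, and its part in the peak calls was not tested. An FDR under 0.05 was given to 10 of the 28 (35.7%), beside 15.5% of all peaks, and an FDR over 0.5 to 6 (21.4%), beside 30.4%. A length of 500 bp or more was seen in 9 of the 28 (32.1%), compared with 6.16% of all peaks.

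**Figure D1:**
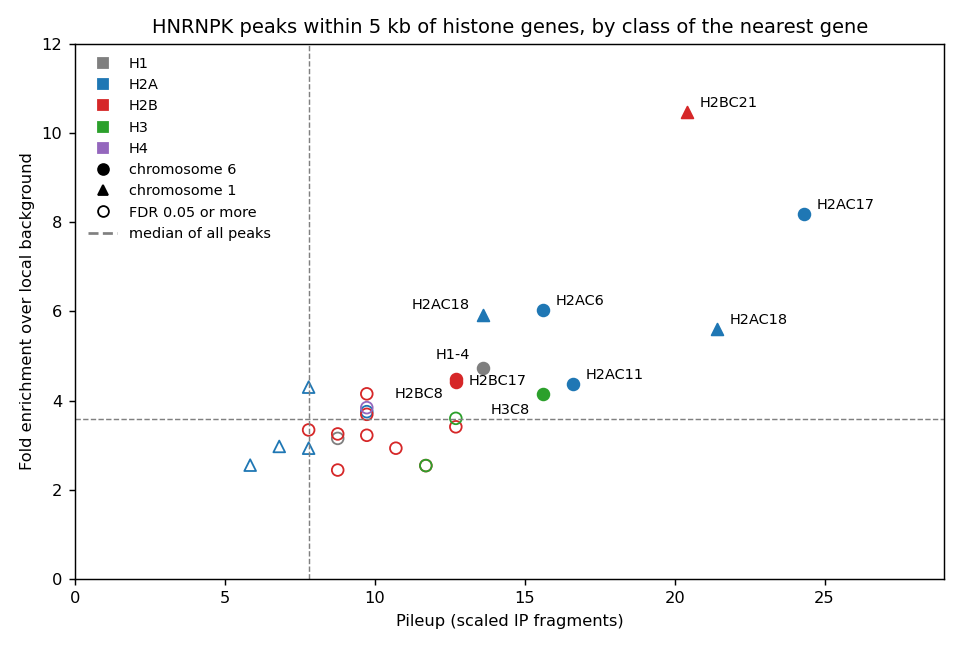
Fold enrichment against pileup for the 28 HNRNPK peaks within 5 kb of a replication-dependent histone gene, 1 IP library against 1 input. Colours give the class of the nearest gene, filled symbols an FDR under 0.05, and dashed lines the medians of all 22351 peaks (3.58 and 7.79). H2BC21 has the highest fold enrichment (10.47) and H2AC17 the highest pileup (24.3).

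H2BC21, an H2B gene of the chromosome 1 cluster, had the strongest peak of the group. It ranked 4 among all 22351 peaks by fold enrichment (10.47), with a pileup of 20.4, a deposited p-value of 1.95e-20 and an FDR of 9.58e-15. The pileup corresponded to 21 fragments, with exact Poisson limits of 13 and 32.1 for counting error. These limits take no account of the choice of this peak as the strongest of the group. Its local background of 1.05 was near the lowest of the list (1.04), so that the fold enrichment exceeded that of H2AC17, where 25 fragments stood over a background of 2.10. The peak spanned 1173 bp, chr1:149884958-149886130 in GRCh38, inside the gene span of chr1:149884459-149886682 on the minus strand. It began 552 bp and ended 1724 bp after the gene start. The start itself was therefore not covered. H2BC21 is known to give a polyadenylated transcript beside the stem-loop form, and its span of 2224 bp is longer than that of most of the group. Exon limits were not used here.

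H2BC21 shares a promoter region with the H2A gene H2AC20, which runs the other way. H2AC20 had a peak of its own on its span, 233 bp long, with a fold enrichment of 4.30, 8 fragments and an FDR of 0.101. Neither peak reached into the 300-base window around either start. In contrast, a peak overlapped the promoter window of 3 other histone genes, H2AC18 by 115 bp, H2BC17 by 69 bp and H2AC17 by 30 bp. The share of all protein-coding windows with a peak is not given here, so nothing is read from this count, out of 54 genes with a window. The promoter windows of these 5 genes are printed from RefSeq GRCh38.p14, 250 bases before to 50 after the start, because they touch a peak or lie between the H2BC21 and H2AC20 peaks. Capitals mark matches on either strand. The motifs searched were the CCAAT box, the TATA box as TATAAA, the octamer of H2B promoters as ATTTGCAT, a CT element as CCCTCCCC, the motif GCGAGG that the study names, and likewise its motif CTAATG.
H2BC21 promoter, chr1:149886633-149886932, minus strand: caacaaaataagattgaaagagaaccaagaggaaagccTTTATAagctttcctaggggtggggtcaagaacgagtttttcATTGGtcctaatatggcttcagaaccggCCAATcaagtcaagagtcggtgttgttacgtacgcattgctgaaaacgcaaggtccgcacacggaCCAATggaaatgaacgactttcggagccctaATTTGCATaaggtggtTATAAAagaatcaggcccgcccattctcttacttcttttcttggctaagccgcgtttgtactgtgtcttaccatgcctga
H2AC20 promoter, chr1:149886668-149886967, plus strand: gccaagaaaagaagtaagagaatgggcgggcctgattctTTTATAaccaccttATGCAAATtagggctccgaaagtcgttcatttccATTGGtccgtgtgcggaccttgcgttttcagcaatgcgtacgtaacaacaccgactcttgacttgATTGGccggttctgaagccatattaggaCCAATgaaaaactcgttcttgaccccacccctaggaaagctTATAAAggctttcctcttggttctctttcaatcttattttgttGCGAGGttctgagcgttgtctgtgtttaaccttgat
H2AC18 promoter, chr1:149842701-149843000, minus strand: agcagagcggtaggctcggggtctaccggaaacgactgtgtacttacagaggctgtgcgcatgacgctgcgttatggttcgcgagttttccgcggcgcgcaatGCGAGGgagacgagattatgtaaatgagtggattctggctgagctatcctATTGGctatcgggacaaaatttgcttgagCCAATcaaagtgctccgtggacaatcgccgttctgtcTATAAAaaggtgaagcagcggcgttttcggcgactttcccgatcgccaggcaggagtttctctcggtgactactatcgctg
H2AC17 promoter, chr6:27893136-27893435, minus strand: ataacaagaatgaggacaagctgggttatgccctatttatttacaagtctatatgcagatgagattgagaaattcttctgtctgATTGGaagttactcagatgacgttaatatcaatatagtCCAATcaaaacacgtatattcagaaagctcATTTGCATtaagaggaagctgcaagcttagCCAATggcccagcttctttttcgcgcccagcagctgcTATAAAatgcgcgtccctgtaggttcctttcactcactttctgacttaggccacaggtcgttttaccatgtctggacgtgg
H2BC17 promoter, chr6:27893175-27893474, plus strand: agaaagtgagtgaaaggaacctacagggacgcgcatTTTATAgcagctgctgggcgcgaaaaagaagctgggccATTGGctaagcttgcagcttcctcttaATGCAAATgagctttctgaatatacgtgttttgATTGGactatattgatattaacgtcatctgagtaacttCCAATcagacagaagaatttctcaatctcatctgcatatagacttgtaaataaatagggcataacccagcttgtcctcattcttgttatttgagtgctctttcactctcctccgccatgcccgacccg

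The CCAAT box, TATA box and octamer are known elements of histone promoters. In the H2BC21 window the ATTTGCAT octamer lay 46 bases before the start and TATAAA lay 30 bases before it, with CCAAT on the gene's own strand at 77 and 142 bases before it. H2AC20, read from the other strand, carried TATAAA 29 bases and CCAAT 70 bases before its own start. No CCCTCCCC, a CT element of the kind HNRNPK binds, was in the 5 printed windows. Promoter windows were at hand for 54 of the 59 genes, with H2AC12, H3C11, H3C12, H4C1 and H4C3 as the others. CCAAT was found in 48 of the 54 (88.9%), compared with 42.1% of the 15843 protein-coding genes with a window. TATAAA was found in 68.5% against 12.4%, and ATTTGCAT in 48.1% against 2.22%. Windows of divergent H2A and H2B genes overlap, so that 1 site can count for both genes. The octamer was in 14 of 17 H2B and 11 of 14 H2A windows, in 1 of 8 H3 windows and in 0 of 9 H4 and 0 of 6 H1 windows. CCCTCCCC was found in 5.56% of the histone windows, all 3 of them H4 genes (H4C9, H4C11 and H4C12), against 20.1% of the protein-coding windows. These were also the 3 H4 genes with a peak within 5 kb, at 2329 bp or more from the span and outside the window. H4C11 and H4C12 shared a single peak (FDR 0.101), and that of H4C9 lay on the H2BC12 span (FDR 0.339). By peak, CCCTCCCC was in 3 of the 31 windows of histone genes with a peak within 5 kb and in 0 of the 23 without. GCGAGG was in 14.8% of histone windows against 33.2%, with 3 of the 31 and 5 of the 23, and CTAATG in 7.41% against 6.85%, with 3 of the 31 and 1 of the 23. The same split by peak over all protein-coding windows is not given here, so nothing is read from these counts by peak. A match is a description of letters, not a binding site.

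By histone class, the share of genes with a peak within 5 kb ranged from 27.3% for H4 to 73.3% for H2A. H2A and H2B genes, which encode the pair of histones that form the outer dimers of the nucleosome, had a peak within 5 kb in 11 of 15 and 12 of 17 cases. H3 genes had one in 5 of 10, linker H1 genes in 2 of 6 and H4 genes in 3 of 11, beside 38.2% of all protein-coding genes and 18.5% of the short ones. The shares of H1 (33.3%) and H4 (27.3%) lay between these values. The median distance from span to nearest peak was 0.923 kb for H2A and 1.19 kb for H2B, then 5.33 kb for H3, 9.41 kb for H4 and 16.1 kb for H1. A peak with an FDR under 0.05 lay within 5 kb of 7 H2A, 8 H2B, 2 H3 and 1 H1 genes, and of 0 of the 11 H4 genes. The shares at this threshold were 9.05% of all and 4.86% of short protein-coding genes, so that nothing is read from the counts for H1 and H4. The difference between classes was not tested, since neighbours share peaks and most H2A and H2B genes stand in pairs.

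**Figure D2:**
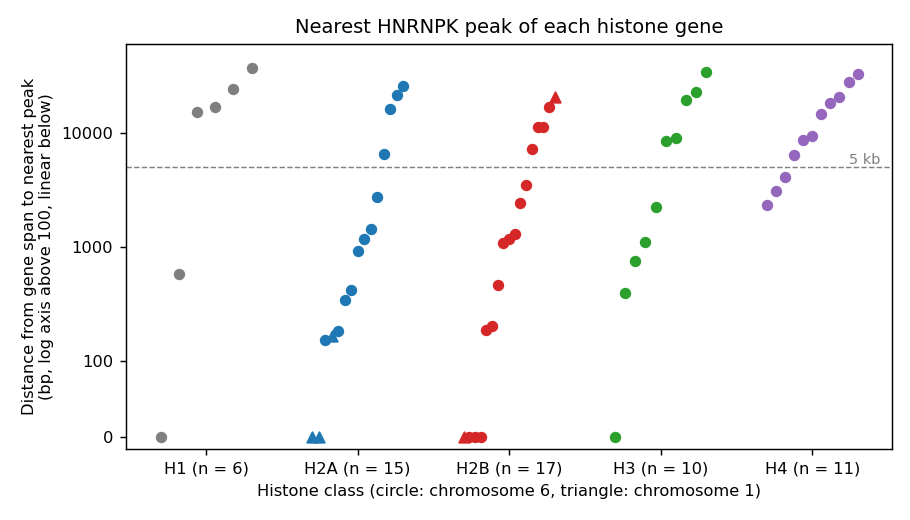
Distance in bp from each of the 59 histone gene spans to the nearest HNRNPK peak, by histone class, on an axis that is logarithmic above 100 bp and linear below. Each point is 1 gene, the dashed line is the 5 kb limit, and a point at 0 is a gene with a peak on its span. The nearest peak of an H4 gene lies at 2329 bp, whereas 8 genes of the other classes have a peak at 0.

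Of the linker histone genes, H1-4 carried a peak on its span with a fold enrichment of 4.72, 14 fragments and an FDR of 0.00171. H1-2 had a weaker peak 577 bp past its end (fold enrichment 3.15, FDR 0.391). H1-1, H1-3, H1-5 and H1-6 had none within 5 kb. The H1-4 peak was also the nearest of H2BC5, 1310 bp from that span.

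The peaks nearest to H2A and H2B genes held most of the strong values on chromosome 6. The H2AC17 and H2BC17 pair, at the far end of the cluster, stood out with 4 peaks within 5 kb. The first, at chr6:27891929-27892515, had a fold enrichment of 8.18 (rank 19), a pileup of 24.3 and an FDR of 3.47e-13, and it lay 184 bp past the end of H2AC17. The next lay on the H2BC17 span and began 19 bp before its start, with a fold enrichment of 4.48 and an FDR of 0.00619. Beyond the end of H2BC17 followed peaks at 778 and 1594 bp, with fold enrichment of 3.22 and 2.54 and FDRs of 0.29 and 0.64. All 4 were also within 5 kb of the H3 gene H3C12. At H2AC6, a peak at chr6:26125111-26125456 lay 421 bp past the gene end with a fold enrichment of 6.03, 16 fragments and an FDR of 5.78e-06. A further one at 1544 bp had a fold enrichment of 3.75 and an FDR of 0.122. Both were within 5 kb of H2BC4, the divergent partner of H2AC6.

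Fold enrichment was lower at other pairs, with peaks on a span or past an end. At H2BC8, which is paired with H2AC8, peaks lay 466 and 1634 bp past the end, with fold enrichment of 4.41 and 3.69 and FDRs of 0.00753 and 0.134. H2BC11 and H2AC11 each had a peak past their outer end, at 202 bp with a fold enrichment of 3.41 (FDR 0.101) and at 154 bp with 4.36 (FDR 0.000936). Both genes of this pair thus ended beside a peak, and no peak lay between their starts. H2BC12, whose span of 8566 bp reaches over H4C9, held peaks at 1190 and 3748 bp from its start with fold enrichment of 4.15 and 3.25 (FDRs 0.0588 and 0.339), both also within 5 kb of H2AC12. H2BC13 had a peak on its span (2.44, FDR 1) and one 240 bp past its end (3.34, FDR 0.371), which were shared with H2AC13 and H3C10. H2BC15, paired with H2AC15, had a peak 188 bp past its end with a fold enrichment of 2.93 and an FDR of 0.371.

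Among the H3 genes, H3C8 had a peak 393 bp past its end with a fold enrichment of 4.14, 16 fragments and an FDR of 0.00358, which was also within 5 kb of H2BC10. H3C7 carried one on its span, with a fold enrichment of 3.60 and an FDR of 0.0675, beside H2BC9. The peak 758 bp past H3C4 had a fold enrichment of 2.54 over a background of 4.00 and an FDR of 0.64, and it also fell within 5 kb of H2AC7 and H2BC7. Of the H4 genes, H4C11 and H4C12 shared a single peak, 2329 and 4115 bp away, with a fold enrichment of 3.84 and an FDR of 0.101. H4C9 lay 3073 bp from a peak on the H2BC12 span. H4C12 was the gene nearest to the 5 kb limit on the inside, and H4C4, at 6396 bp, was the nearest on the outside.

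The other 26 genes had no peak within 5 kb. These were H1-1, H1-3, H1-5 and H1-6 of the linker class, H2AC1, H2AC4, H2AC14 and H2AC16 of the H2A class, and H2BC1, H2BC3, H2BC6, H2BC14 and H2BC18 of the H2B class. They further comprised H3C1, H3C2, H3C3, H3C6 and H3C11, and H4C1 to H4C6, H4C8 and H4C13. Several stood side by side. From H1-1 to H3C3, at the start of the largest block, 8 genes over 28.8 kb had their nearest peak 9.06 to 37.1 kb away. Another 4 genes over 8.22 kb, H2AC16, H1-5, H3C11 and H4C13, were 18.4 to 25.7 kb from a peak. By block, 14 of 31 genes from H1-1 to H4C8 had a peak within 5 kb, and 5 of 5 from H2BC11 to H2AC12. The counts were 10 of 16 from H2BC13 to H2BC17, 0 of 2 at H2AC1 and H2BC1, and 4 of 5 on chromosome 1. The share was 38.2% of all protein-coding genes and 18.5% of the short ones. Genes with and without a peak thus occurred together from H1-1 to H4C8, from H2BC13 to H2BC17 and on chromosome 1, but not in the other blocks.

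The side of the gene on which peaks lay was examined after the peak positions had been seen. Relative to the nearest of the 59 listed genes, 9 of the 28 peaks overlapped the span, 18 lay past the end, and 1 lay before the start (992 bp before H2AC21). Among the 9, the H2BC21 peak and the 2 H2BC12 peaks began 552 bp or more after the start. The annotated spans of these genes, 2224 and 8566 bp, were long beside the group median of 494 bp, and the split depends on them. Among the 18, the peak 106 bp past H2AC18, overlapped H3C14, a histone gene outside the list. For other short protein-coding genes the nearest-gene positions were 72 past the end and 65 before the start, or 52.6% past the end, against 94.7% (18 of 19) for the listed histone genes. The layout of the clusters gave unequal room for this comparison. Of the 260 kb outside spans and within 5 kb of a histone gene with known strand, 65.5% lay past the end of the nearest one, and 60.5% within 1 kb. The share of peaks past the end was above the share of sequence there, and this difference was not tested. The 18 peaks began a median of 522 bp past the end, and 12 of them within 1 kb, 106 to 778 bp away.

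Counted by gene, 13 of the 54 histone genes with known strand (24.1%) had a peak in the 1 kb after the end, and 10 (18.5%) in the 1 kb before the start. The corresponding shares were 3.02% and 3.03% of all protein-coding genes, and 4.02% and 3.15% of the short ones. For 7 of the 10 genes with a peak before the start, each such peak lay nearer to the divergent partner or on its span. H2AC18, H2AC21 and H2BC17 were the other 3. With the peak midpoint in place of a 1 bp overlap, 12 genes had a peak after the end and 3 before the start. Within 2 kb the counts were equal, at 14 genes (25.9%) after the end and 14 before the start, beside 4.88% and 4.37% of all protein-coding genes and 6.3% and 4.89% of the short ones.

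**Figure D3:**
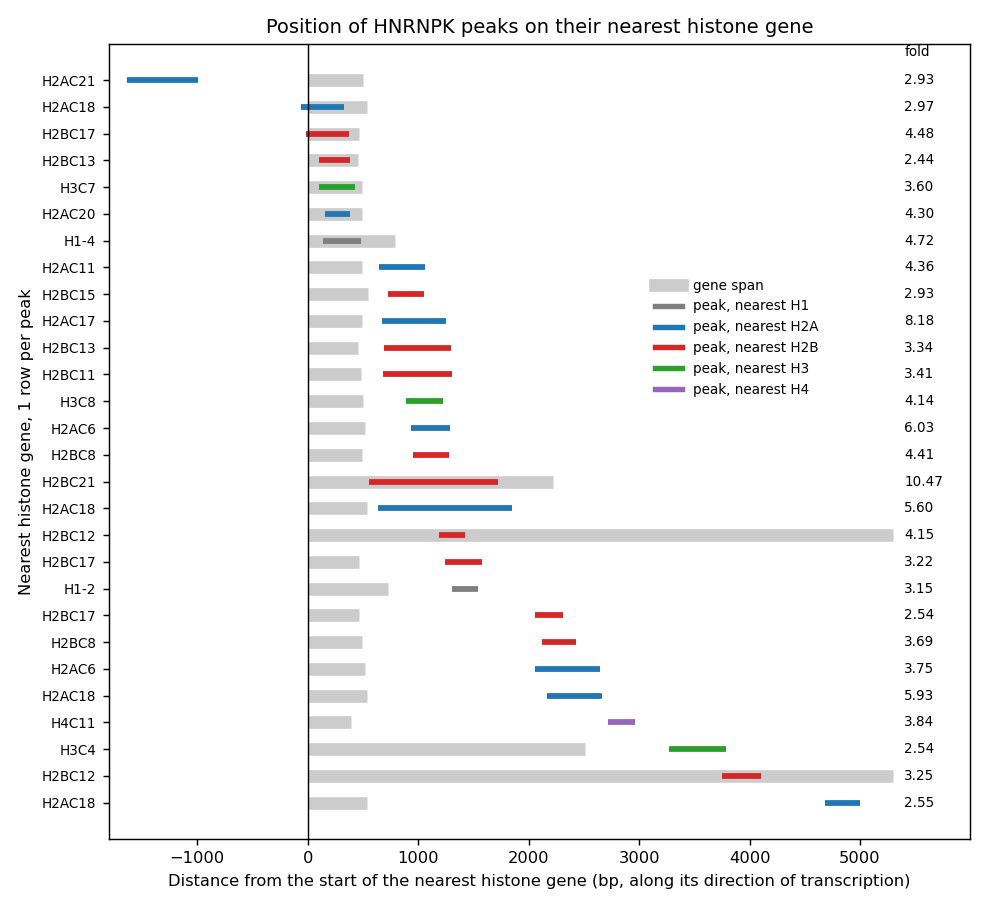
Position of each of the 28 peaks relative to the start of its nearest listed histone gene, in bp along the direction of transcription, with the gene span in grey (the H2BC12 span is drawn only in part) and the fold enrichment at the right. Of the peaks, 9 overlap a span, 18 lie past the end and 1 lies before the start.

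Divergent pairs were then examined on their own. Only the 54 histone genes with known strand could be used. Starts of neighbours on opposite strands lay within 1 kb of each other in 11 pairs, with 193 to 978 bp (median 239) between them. A peak overlapped the sequence between the starts in 1 of the 11, by the 19 bp with which the H2BC17 peak passes its start. In 6 of the 11 a peak lay in the 1 kb past the end of at least 1 gene. In 2 of them, H2BC11 with H2AC11 and H2AC17 with H2BC17, peaks lay past both ends. Counted by gene and not by pair, 3.02% of all protein-coding genes and 4.02% of the short ones had a peak there, so these shares are in another unit. The sequence between starts was shorter than these regions, and no share for other divergent pairs is given here. Nothing is therefore read from the contrast between the 2 positions. The peak list gives no summit, so positions are those of peak limits and midpoints.

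The chromosome 6 cluster, chr6:25726063-27893891, held 34 peaks over 2168 kb, with exact Poisson limits of 23.5 and 47.5. The 10 adjacent windows of equal length held 12 to 55 (median 23), and 8 of them held fewer than the cluster. Its ratio to the median window was 1.48. The median local background of peaks was 2.03 in the cluster and 1.11 to 1.72 in the windows, and its part in the counts was not tested. An FDR under 0.05 was given to 11 of the cluster peaks and to 1 to 7 peaks per window (median 3.5). The highest fold enrichment in the windows was 5.29, compared with 8.18 in the cluster. Gene content differed, with 75 protein-coding genes in the cluster, most of them histone genes, and 4 to 105 in the windows. Per protein-coding gene the cluster held 0.453 peaks and the windows 0.512 to 4.25, so that the cluster was lower than all 10 windows in this unit.

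Within the cluster, peaks gathered around the histone genes. The 305 kb within 5 kb of a listed gene held 19 peaks, or 62.3 per Mb, 7 of them with an FDR under 0.05. The other 1863 kb held 15 peaks, or 8.05 per Mb, 4 of them with an FDR under 0.05 and none above a fold enrichment of 4.70. For comparison, the sequence within 5 kb of all protein-coding genes held 9.55 peaks per Mb, and that within 5 kb of other short ones 19.6. Of the 21 other protein-coding genes in the cluster, 5 (23.8%) had a peak within 5 kb, namely TRIM38, H4C7, BTN3A2, PRSS16 and ZNF391.

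The chromosome 1 cluster, chr1:149782689-149887965, held 10 peaks over 105.3 kb, with exact Poisson limits of 4.8 and 18.4. The 10 adjacent windows held 0 to 3 (median 1), for a ratio of 10 to the median window. There were 4 peaks with an FDR under 0.05 in the cluster and 0 in the 10 windows. The cluster held 13 protein-coding genes, against 0 to 7 in the windows. Peaks per protein-coding gene were 0.769 in the cluster and 0 to 1 in the windows that held any such gene (median 0.5).

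Beside the H2BC21 and H2AC20 peaks, 4 peaks on chromosome 1 lay within 5 kb of H2AC18, and 3 of the 4 were nearer to H3C14. H2AC18, an H2A gene, had a peak of 1213 bp 106 bp past its end, with a fold enrichment of 5.60, 22 fragments and an FDR of 1.91e-07. The same peak overlapped H3C14, an H3 gene of the cluster that is not among the 59. A further peak, 1633 bp past the H2AC18 end and 102 bp past that of H3C14, had a fold enrichment of 5.93 and an FDR of 4.01e-05. A weak peak covered the H2AC18 start (2.97, FDR 0.64), and another lay 4155 bp past the end (2.55, FDR 1). H2AC21 was 165 bp from the H2AC20 peak, and the peak before its start had a fold enrichment of 2.93 and an FDR of 0.64. H2BC18, with a span of 29682 bp, had its nearest peak 20.6 kb away.

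Near-identical copies limit the reading of this cluster. The promoter windows of H2AC18 and H2AC19 shared an unbroken stretch of 299 of 300 bases, those of H3C14 and H3C15 one of 296, and those of H4C14 and H4C15 all 300. How the authors placed reads that match both copies was not given in the sources used here, so peaks at either copy are uncertain. Around the H2AC19 and H3C15 copy, peaks had fold enrichment of 3.66, 3.99 and 3.25 and 14, 9 and 9 fragments. These lay below the 5.93 and 5.60 at the H2AC18 copy and above its other peaks, 2.97 and 2.55. Of 15 other replication-dependent histone genes listed, not all of them in the clusters, 14 were matched by symbol, with H2AW as the other. Of the 14, 7 (50%) had a peak within 5 kb, beside 38.2% of all protein-coding genes and 18.5% of the short ones, and several shared peaks with the listed genes. They were H4C14, H3C14, H4C15, H2AC19, H3C15, H3-4 and H4C7. Of these, H3C14, H4C15, H2AC19 and H3C15 had one with an FDR under 0.05, beside 9.05% of all protein-coding genes and 4.86% of the short ones. These 4 genes rested on 3 peaks, and the H4C15 span of 16.8 kb covers H2AC19 and H3C15. H3-4, on the long arm of chromosome 1 but outside the cluster, had its peak 4689 bp before the start, and H4C7 was 3212 bp from the H3C7 peak.

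Histone variant genes that are expressed outside S phase, many of them with introns and polyadenylated mRNAs, were a further list. A peak lay within 5 kb of 2 of these 24 genes (8.33%), H1-10 and H1-7, beside 38.2% of all protein-coding genes and 18.5% of the short ones. None of these peaks had an FDR under 0.05, beside 9.05% of all protein-coding genes and 4.86% of the short ones. H1-10, a linker variant, had peaks with fold enrichment of 3.25 on its span and 2.94 past its end, and the testis linker gene H1-7 had one of 3.06 before its start. Their median span was 2.2 kb.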

How the data were processed

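HNRNPK ChIP-seq of H1299 cells was analysed from 1 peak list, with 1 HNRNPK IP and 1 input library. The submitters' processing notes name Trimmomatic 0.36, STAR 2.5.3a, MACS2, bedtools, HOMER and GRCh38. Peak-calling settings and the treatment of duplicate or multiply matching reads were not given in the sources used here. Peak names spell the line A1299 instead of H1299. Since there was a single IP, its list was assumed to be this one. Fold enrichment was deposited as a ratio, IP over local background. Each p-value and FDR was likewise deposited as the peak caller wrote it. Pileup was deposited as a coverage signal in scaled fragments, and whole fragments were recovered in steps of 0.9735, with a largest deviation of 0.0067 of a step. No read totals were used, so the depth of each library is unknown. Local background came from dividing pileup plus 1 by fold enrichment and subtracting 1.

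Gene spans and promoters were those of RefSeq GRCh38.p14, and strand was known where a promoter entry existed. Overlap of 1 bp within 5 kb counted. A genome sequence, exon limits and protein sequences were not used here. Shares carry exact Clopper-Pearson and counts exact Poisson intervals at 95% confidence, covering counting error only. Blocks were split at gaps over 200 kb. Every histone gene with a peak within 5 kb was named, with the genes nearest to the limit, those without a peak, and every gene with a peak in the other lists. The members and lists were chosen with earlier results of these data known, and the analyses of gene sides, divergent pairs, copies and sequence density after seeing the data. Overlap counting was tested on simulated data. Python 3.11.15, numpy 2.4.6, pandas 2.3.3, scipy 1.17.1 and matplotlib 3.10.9 were used.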

Additional observations from a re-analysis of the deposited data

How the results depend on the processing

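No paired analysis was possible because there was 1 IP and 1 input library, and no replicate could be left out. Of 52 alternative values, 26 kept within the limits set and 26 did not. The limit was 1.5 times the main value for counts, and its 95% interval for the protein-coding share and the window ratios. Counts fell with narrower regions and stricter thresholds by construction, and for other changes the cause was not tested.

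Histone genes with a peak within 5 kb (33) numbered 8 on the span only, 20 within 1 kb, 18 at an FDR under 0.05 and 9 with fold enrichment of 5 or more. Under these settings the share of all protein-coding genes (38.2%) was 29.7%, 32.2%, 9.05% and 2.2%. Within 10 kb, 40 histone genes (67.8%) had a peak, beside 43.8% of all protein-coding genes and 26.5% of the short ones. The histone share on the span only, 13.6%, was below that of all protein-coding genes and above the 4.86% of the short ones. Within 1 kb it was 33.9%, beside 8.37% of the short ones. Distinct peaks (28) numbered 9 on the span, 10 at an FDR under 0.05 and 5 with fold enrichment of 5 or more.

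Peaks in the chromosome 6 cluster (34) numbered 11 at an FDR under 0.05, 2 with fold enrichment of 5 or more and 18 in its blocks only. Those in the chromosome 1 cluster (10) numbered 4, 3 and, with peaks within 1 kb merged, 6. The ratio to the median nearby window (1.48 for chromosome 6, 10 for chromosome 1) stayed within the counting interval with 1 or 10 windows to either side. Chosen after seeing the data, the chromosome 6 ratio at an FDR under 0.05 was 3.14, and per protein-coding gene the ratios were 0.379 and 1.54. At an FDR under 0.05 the chromosome 1 ratio has no value, as the median window held 0.

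Leaving out the chromosome 1 cluster was also chosen after seeing the data. It gave 29 of the 54 chromosome 6 histone genes with a peak within 5 kb, and 21 distinct peaks. The share was 38.2% of all protein-coding genes and 18.5% of the short ones. The remaining alternatives of this kind concerned gene sides. Genes with a peak in the 1 kb after the end (13) numbered 6 at an FDR under 0.05 (11.1%). The share was 0.568% of all protein-coding genes and 1.52% of the short ones. Genes with a peak in the 1 kb before the start (10) numbered 5 within 500 bp (9.26%). At an FDR under 0.05 there were 4 (7.41%). The shares were 2.15% and 0.562% of all protein-coding genes, and 1.95% and 1.09% of the short ones. By peak midpoint there were 3, and without the chromosome 1 cluster 6, with no such shares given here.

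The coverage height of the histone peaks corresponded to 6 to 25 fragments. The depth of the libraries is unknown, and a gene without a listed peak is not shown to be unbound. The group was chosen with the list known, so its counts are no independent evidence. The part of multiply matching reads and of the local background was not tested, and genes were placed by span, with strand known for 54 of 59.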

Other observations

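Genes that make, process and deposit histones were looked at beside the histone genes. Of 27 genes for histone gene transcription and 3 prime processing, 12 (44.4%) had a peak within 5 kb, at a median span of 19.6 kb for the list, beside 38.2% of all protein-coding genes. A peak with an FDR under 0.05 lay within 5 kb of 3, SLBP, ERI1 and RNU7-1, beside 9.05% of all protein-coding genes. Nothing particular to this list is read from these counts. SLBP, whose product binds the histone mRNA stem-loop, had 3 peaks, on its span with fold enrichment of 4.56 (FDR 0.0367) and 3.61 (FDR 0.22), and 3888 bp before its start with 4.31 (FDR 0.0409). ERI1, an exonuclease that trims the stem-loop end, had a peak of 4.77 (FDR 0.0243). The U7-specific proteins LSM10 and LSM11 had peaks of 2.87 for the former and of 3.23 and 3.25 for the latter. The nuclease CPSF3 had one of 4.19 and the Sm protein SNRPD3 one of 3.57. The cap-complex genes NCBP1 and SRRT had peaks of 3.27 for NCBP1 and of 3.65 and 3.25 for SRRT. GON4L (3.25), the coilin gene COIL (3.17) and the cyclin gene CCNE1 (3.43) were the others besides RNU7-1, and these last values of fold enrichment, from LSM10 on, all had an FDR over 0.05.

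RNU7-1, the gene of the U7 RNA itself, spans 0.063 kb and had 5 peaks within 5 kb. Of 21647 genes of any type with a span under 2 kb, 9 (0.0416%) had at least 5. Fold enrichment ran from 2.15 to 4.06, and the strongest peak, 1777 bp away, had an FDR of 0.0291. The nearest lay 130 bp from the gene, with a fold enrichment of 2.15 and an FDR of 1. All 5 overlapped neighbouring genes, 3 of them ATN1 and the other 2 C12orf57, so that they cannot be assigned to RNU7-1.

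Of 22 histone chaperone genes, 11 (50%) had a peak within 5 kb, beside 38.2% of all protein-coding genes. The median span was 30.2 kb, against 24115 bp for all protein-coding genes. With an FDR under 0.05 there were 3, beside a share of 9.05% of all protein-coding genes, and nothing particular to the list is read from these counts. The 3 were HJURP (4.51, FDR 0.0409), which loads the centromeric variant CENPA, MCM2 (4.75, FDR 0.0155), a replicative helicase subunit that binds H3 and H4, and CABIN1 (4.66, FDR 0.0202) of the HIRA complex. The chromatin assembly factor genes CHAF1B and RBBP4 had fold enrichment of 3.66 and 3.82. HIRA reached 3.58, and the H3.3 factors DAXX and ATRX reached 3.56 and 4.24. For ANP32E the value was 4.19, for NAP1L4 3.82 and for SSRP1 3.34. All peaks of these 8 genes had an FDR over 0.05.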
